A study of Mus musculus with 6 samples.

Results

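The HOX cluster genes of the mouse were followed across RNA sequencing libraries of colon tumours. The members were the rows of the count table whose gene symbol is Hoxa, Hoxb, Hoxc or Hoxd followed by a number alone, without antisense or opposite-strand names. This took 39 of 53700 gene rows, each with 1 identifier. Of the 39, 11 belong to the Hoxa cluster on chromosome 6, 10 to Hoxb on chromosome 11, 9 to Hoxc on chromosome 15 and 9 to Hoxd on chromosome 2.

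HOX genes encode homeodomain transcription factors that tell cells where they lie between the head and the tail of the body. Within a cluster the genes stand in the order in which they are used along that axis, so that low paralogue numbers mark anterior and high numbers posterior positions. The adult intestine keeps such a code in its epithelium and in its mesenchyme, and the hindgut, from which the colon is formed, is known for the posterior members. HOX proteins bind DNA together with partners of the PBX and MEIS families, Polycomb complexes keep HOX clusters silent, and MLL complexes of the Trithorax group keep them active.

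The tumours came from 3 APC-WT and 3 APC-KI mice, all fed pellets with doxycycline at 100 mg/kg. The APC-WT animals kept endogenous Tcf7l2 expression, had been on doxycycline for 10 days and were cachectic, that is, in a state of cancer wasting. In the APC-KI animals doxycycline represses Tcf7l2 in the whole body; they had been on it for 6 weeks and had recovered. Strain, age and the promoter behind the repression are not given in the sources used here. Genotype, time on doxycycline and body state therefore cannot be told apart. Sex, read from sex-linked genes below, is partly confounded with them. The comparison shows whether the HOX code of the tumour differs between these sets of animals.

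The 6 libraries held between 51777342 and 63921108 counts. Tcf7l2, the factor repressed by design, measured 44.1, 43.8 and 35.6 CPM (APC-WT replicates 1 to 3) against 4.48, 6.91 and 5.34 CPM (APC-KI replicates 1 to 3), the direction the labels give. CPM are counts scaled to a common library size. Colon genes were present, with Car1, a carbonic anhydrase of colonocytes, averaging 177 ± 31.7 CPM (APC-WT) and 384 ± 139 CPM (APC-KI, both SD, n = 3). The small bowel genes Apoa4 and Sis were at or near 0. APC-WT replicates 1 and 2 held 19164 and 16055 counts of Y-linked genes and the other 4 libraries 0. Xist, which is transcribed from the inactive X chromosome of females, measured 0.33 and 0.56 CPM in APC-WT replicates 1 and 2. In the other 4 libraries it measured 2085 to 2221 CPM. By these genes APC-WT replicates 1 and 2 were male, and APC-WT replicate 3 and all APC-KI replicates were female. Marker lists of other cell types also held calls. Here a marker that rose or fell had an adjusted p under 0.05 in edgeR. Over all 19127 genes tested, 12.5% were called higher and 7.63% lower. Of 15 smooth muscle markers 14 rose in these tumours, which had been pinched off the muscle layer, with summed levels of 249 to 563 CPM (APC-WT) and 1128 to 1795 CPM (APC-KI). Of 15 fibroblast markers 6 rose (1625 to 3310 against 3786 to 5121 CPM), and of 10 pan-epithelial markers 7 rose (8452 to 9629 against 10777 to 12917 CPM). Of 11 enteric neuron and glia markers 4 rose (24.4 to 45.7 against 33.4 to 46.4 CPM), with Elavl4 and S100b among those at 0 in at least 1 library. Of 10 mast cell markers 9 fell and 1 rose (176 to 922 against 58.4 to 81.6 CPM). The APC-KI sum includes the marker that rose, at 43.6 ± 16.3 CPM there (SD, n = 3), so it is not a measure of the 9 that fell. Of 10 B and plasma cell markers 7 rose (1659 to 1973 against 6608 to 15249 CPM). Of the T cell, macrophage and endothelial markers 7 of 9, 3 of 9 and 3 of 8 rose. None of the smooth muscle, fibroblast, pan-epithelial, mast cell, B cell, T cell, macrophage or endothelial markers was at 0 in any library. In bulk tumours fewer cells of a type and less RNA per cell cannot be told apart, and the part of these cell types in the HOX values below was not tested.

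The tumours carried a posterior HOX code, and the Hoxc cluster gave almost no counts. The 39 genes together took 236765 counts, or 0.0702% of all counts. Per kilobase of exon, the posterior genes (paralogues 9 to 13) held between 75.4% and 84.9% of the summed HOX level in each library, the central genes (4 to 8) between 13.1% and 21.7%, and the anterior genes (1 to 3) between 1.74% and 2.87%. The paralogue 13 genes, which mark the most posterior territory, held between 29.7% and 55.6%.

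**Figure D1:**
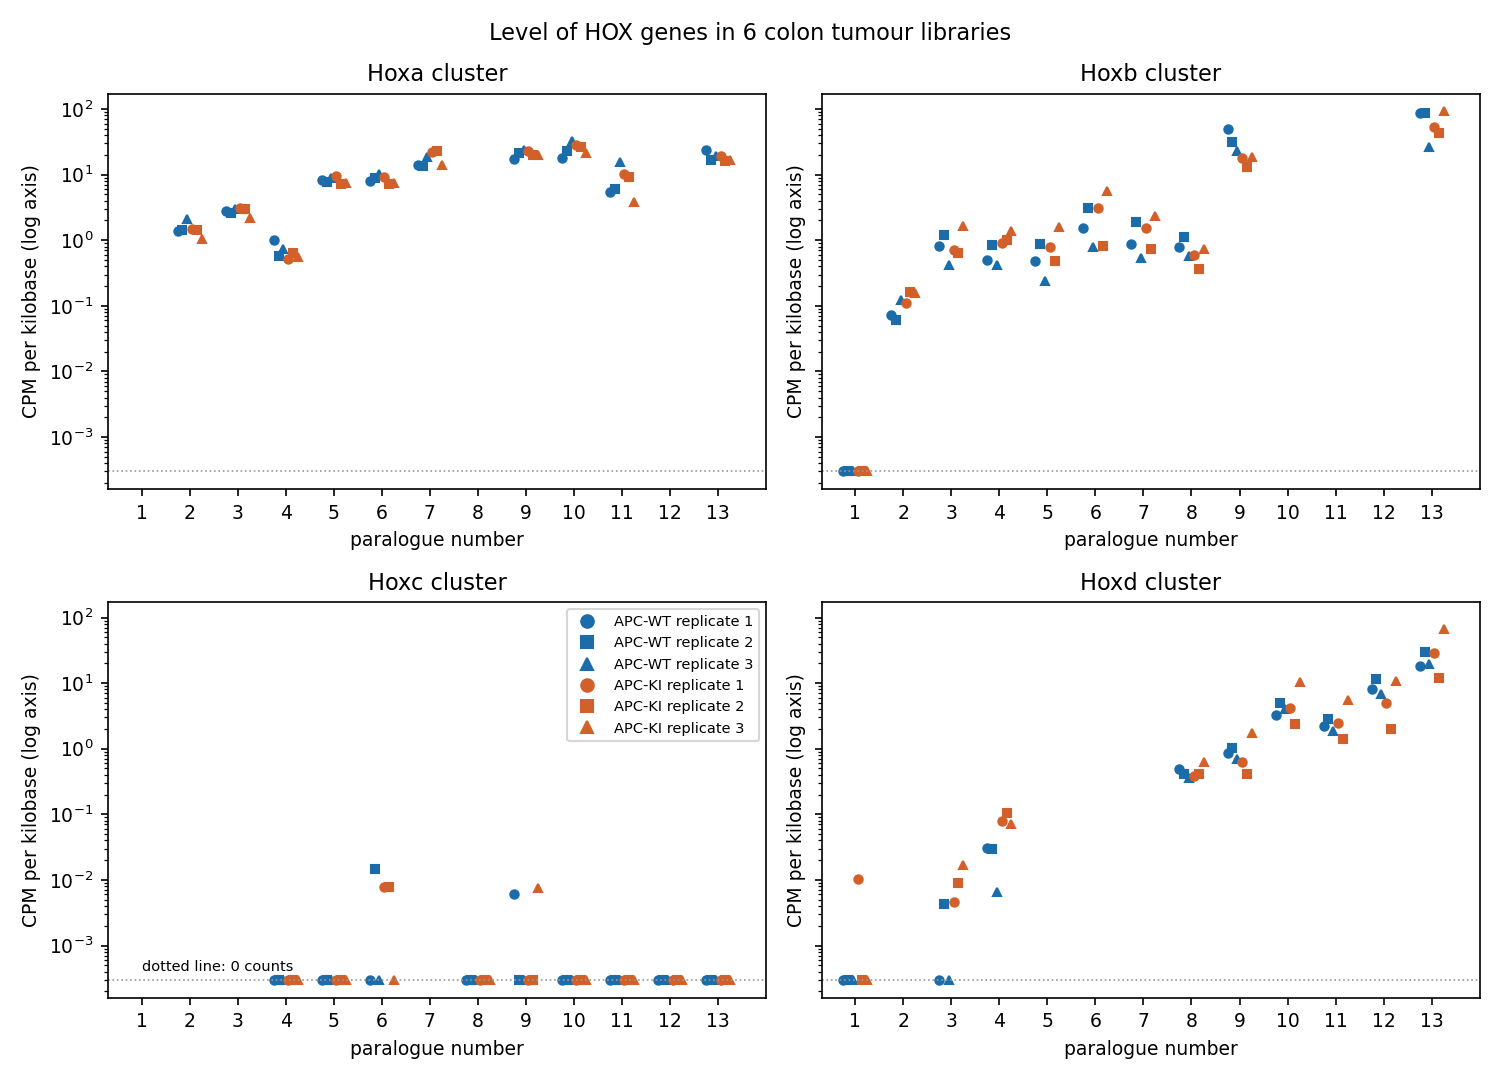
Level of HOX genes, as CPM per kilobase of exon on a log axis, against its paralogue number, with 1 panel per cluster and 1 point per library (blue, APC-WT; orange, APC-KI; shape, replicate). The highest levels lie at paralogue numbers 7 and above in the Hoxa, Hoxb and Hoxd clusters, and 7 of the 9 Hoxc genes lie on the dotted line of 0 counts in every library.

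By mean level per kilobase the order began with Hoxb13 at 64.5, a gene of the hindgut and of its adult derivatives, with single libraries from 26.5 to 91.7. It was the highest HOX gene in 5 of 6 libraries and second to Hoxa10 in APC-WT replicate 3. Hoxd13 followed at 29.3 (12.1 to 66.8 over libraries), then Hoxb9 at 25.4 (12.9 to 48.9), Hoxa10 at 24.8 (17.9 to 32.0), Hoxa9 at 20.9 (17.4 to 24.0), Hoxa13 at 18.6 (16.0 to 23.8) and Hoxa7 at 17.6 CPM per kilobase (13.6 to 23.3). Neighbours in this order overlapped in their ranges. These 7 genes held between 73.7% and 82.6% of the HOX level per kilobase. The next genes, Hoxa6, Hoxa11 and Hoxa5, stood at 8.55, 8.36 and 8.15 CPM per kilobase.

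The Hoxc cluster gave 6 counts among 337272300 in the 6 libraries. Hoxc6 had 4 counts (2 in APC-WT replicate 2 and 1 each in APC-KI replicates 1 and 2) and Hoxc9 had 2 (1 in APC-WT replicate 1 and 1 in APC-KI replicate 3). Hoxc4, Hoxc5, Hoxc8, Hoxc10, Hoxc11, Hoxc12 and Hoxc13 had 0, which allows up to 0.00889 CPM for each over all libraries, for counting error only. The noncoding gene Hotair, which lies among them, also had 0 counts. In the reference annotation Hoxc5 overlaps Hoxc6, Hoxc8, Hoxc9 and Hoxc10 on the same strand. How reads shared by overlapping genes were counted is not given in the sources used here. Outside this cluster the anterior gene Hoxb1 had 0 counts, Hoxd1 had 1 and Hoxd3 had 8. These 12 genes were not tested between the groups.

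The 27 genes tested were 11 of Hoxa, 9 of Hoxb and 7 of Hoxd. Of these 1 rose and 1 fell in APC-KI tumours at an adjusted p under 0.05 in edgeR's quasi-likelihood test. Over all 19127 genes tested, 20.1% were called, 12.5% as higher and 7.63% as lower. Higher calls were thus 62.1% of all calls, and 41% with library totals in place of TMM factors. With a covariate for Y-linked counts, calls over all genes fell to 220 higher and 195 lower. The share of 20.1% is therefore that of the main fit only. Groups did not overlap in CPM for 3 HOX genes (Hoxb4, Hoxb9 and Hoxd4), against 44.5% of all genes. The same 3 of 27 had an unadjusted p under 0.05, against 37.8% of all genes. The median log2 change was 0.07 over the HOX genes and −0.02 over all genes tested. With library totals these medians were −0.05 and −0.13, and without APC-KI replicate 3 the HOX median was −0.14, so no direction is given to the family. Summed over the 39 genes, the level was 703 ± 61.8 CPM (APC-WT) and 693 ± 139 CPM (APC-KI, both SD, n = 3). By class, the anterior sums (24.2 to 24.8 against 23.8 to 25.5 CPM) and the posterior sums (522 to 647 against 434 to 721 CPM) overlapped between APC-WT and APC-KI libraries. The central sums did not (75.0 to 86.3 against 89.2 to 107 CPM), but without Hoxa7, the most abundant central gene, they overlapped as well (33.6 to 40.8 against 29.9 to 48.1 CPM).

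**Figure D2:**
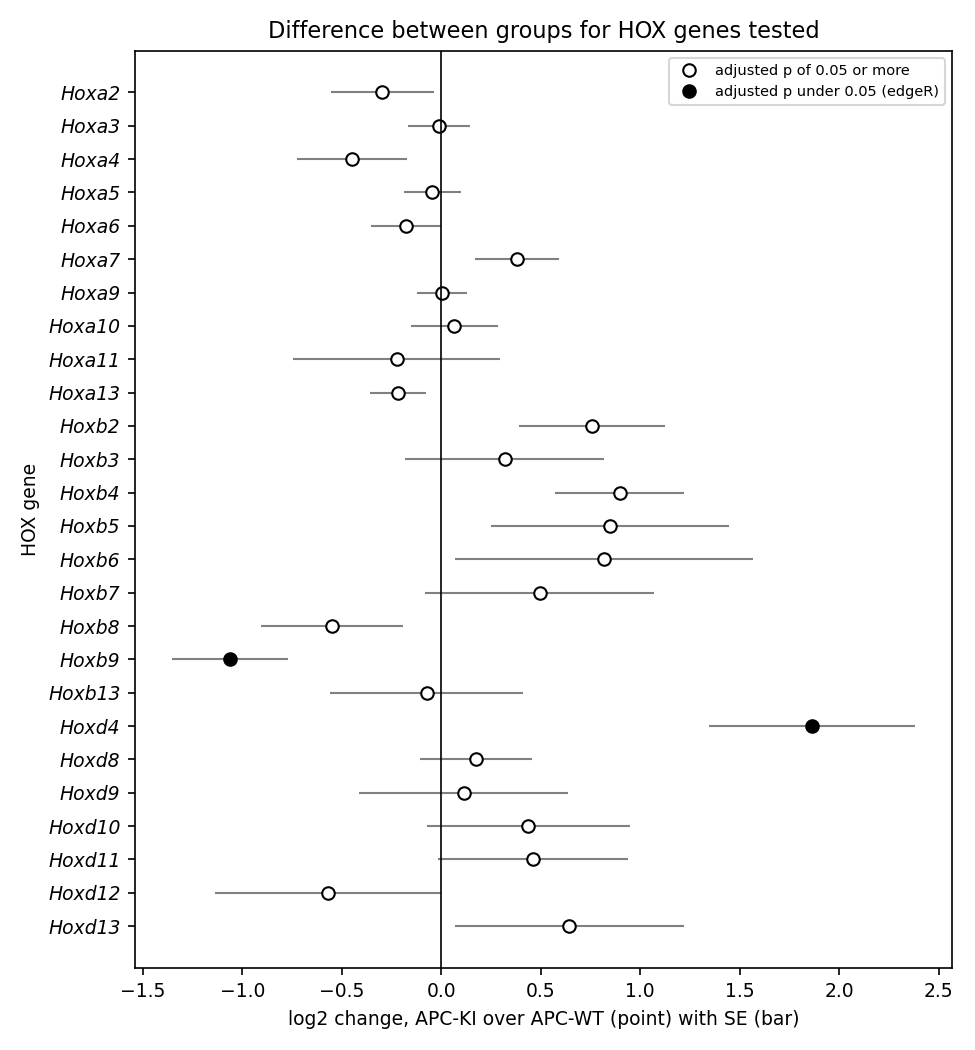
Log2 change between APC-KI and APC-WT tumours (points) with its SE (bars) for HOX genes tested, in cluster and paralogue order. Filled points mark Hoxb9 at −1.06 and Hoxd4 at 1.86, the genes with an adjusted p under 0.05 in edgeR.

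Hoxb9 (ENSMUSG00000020875), a posterior gene of trunk and hindgut, was lower in APC-KI tumours. It measured 126, 81.2 and 58.4 CPM (APC-WT replicates 1 to 3) against 46.9, 33.3 and 47.1 CPM (APC-KI replicates 1 to 3). Every APC-KI library lay below every APC-WT library, and the APC-WT values spread more widely than the APC-KI values. The gene was 2.09-fold lower, with a log2 change of −1.06 ± 0.29 (SE, edgeR adjusted p = 0.0482), and the two-sided exact permutation p was 0.1, which no 3 against 3 design can go below. It did not pass when any library other than APC-WT replicate 3 was left out. Without APC-WT replicate 1, APC-WT replicate 2, APC-KI replicate 1, APC-KI replicate 2 and APC-KI replicate 3 in turn, the log2 change was −0.72, −1.12, −1.14, −0.91 and −1.16 (adjusted p = 0.0773, 0.106, 0.112, 0.135 and 0.0655). In the 4 libraries lacking Y-linked counts, where the lone APC-WT library is taken to vary as the APC-KI group does, it was −0.46 (adjusted p = 0.308).

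Hoxd4 (ENSMUSG00000101174), a central gene of the hindbrain and neck region, was higher in APC-KI tumours but rare in both groups. Its counts were 6, 5 and 1 (APC-WT replicates 1 to 3) against 12, 16 and 12 (APC-KI replicates 1 to 3), that is, at most 0.31 CPM. All APC-KI counts were above all APC-WT counts. It rose 3.64-fold, a log2 change of 1.86 ± 0.52 (edgeR adjusted p = 0.0477, exact two-sided permutation p = 0.1). It did not pass without any 1 of the 6 libraries (log2 change from 1.46 to 2.16, adjusted p from 0.0726 to 0.15), in DESeq2 (adjusted p = 0.0642) or when both libraries with Y-linked counts were set aside (log2 change 3.58, adjusted p = 0.127). In the reference annotation Hoxd4 and Hoxd3 overlap on the same strand and Hoxd3os1 lies across both on the other strand, which leaves the counts of each uncertain.

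Start site windows from RefSeq (build GRCm38.p6) were found for 22 of the 39 genes, with 24 windows of 250 bases before the start. The window of Hoxd4 is shown because this gene rose. Those of Hoxd12 and Hoxd13 are shown because these neighbours were among the most abundant Hoxd genes, and that of Hoxc4 because it comes from the cluster with almost no counts. They lie at chr2:74721728-74721977, chr2:74674763-74675012, chr2:74667975-74668224 and chr15:103034145-103034394, all on the plus strand and printed 5′ to 3′. Capitals mark matches to the searched letters.
Hoxd4: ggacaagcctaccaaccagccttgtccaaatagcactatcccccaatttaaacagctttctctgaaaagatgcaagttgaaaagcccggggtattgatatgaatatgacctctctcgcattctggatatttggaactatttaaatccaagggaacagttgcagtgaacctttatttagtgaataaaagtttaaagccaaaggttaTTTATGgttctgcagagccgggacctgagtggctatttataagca
Hoxd12: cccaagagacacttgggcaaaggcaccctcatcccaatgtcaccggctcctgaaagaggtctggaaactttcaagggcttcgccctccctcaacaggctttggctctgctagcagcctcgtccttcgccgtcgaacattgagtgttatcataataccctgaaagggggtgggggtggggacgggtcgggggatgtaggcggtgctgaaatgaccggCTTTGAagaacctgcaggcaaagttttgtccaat
Hoxd13: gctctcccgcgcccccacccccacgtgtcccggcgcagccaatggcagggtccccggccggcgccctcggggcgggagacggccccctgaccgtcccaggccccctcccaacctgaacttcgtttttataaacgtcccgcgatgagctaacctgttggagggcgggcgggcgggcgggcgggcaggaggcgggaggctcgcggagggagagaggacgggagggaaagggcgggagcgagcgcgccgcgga
Hoxc4: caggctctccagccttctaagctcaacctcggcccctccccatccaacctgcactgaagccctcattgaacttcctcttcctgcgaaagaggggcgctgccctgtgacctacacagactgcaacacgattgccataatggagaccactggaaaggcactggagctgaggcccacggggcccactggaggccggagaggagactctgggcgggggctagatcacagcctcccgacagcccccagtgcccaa
The letters were TTTATG for the core bound by CDX factors, CTTTGA for the core bound by TCF/LEF factors such as Tcf7l2, and TGATTNAT for HOX with PBX, each on both strands. The CDX letters occurred in 5 of the 24 windows, including Hoxd4, and in 10.8% of 32851 promoters of the same length. The TCF/LEF letters occurred in 3 of 24, including Hoxd12, and in 13.8% of promoters. The HOX-PBX letters occurred in 2 of 24 and in 2.82% of promoters, and the Hoxd13 and Hoxc4 windows held none of these letters. The share of G and C was 40.4% in Hoxd4, 55.6% in Hoxd12, 74.4% in Hoxd13 and 62% in Hoxc4, with a median of 52.4% over all promoters. A match is a description of letters and shows no binding.

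The Hoxa cluster spread least within groups, with a median biological coefficient of variation (edgeR's measure of that spread) of 0.197 against 0.403 for Hoxb and 0.443 for Hoxd. Of its 11 genes 0 passed in edgeR, with 0 at an unadjusted p under 0.05 and 0 calls in DESeq2 or limma-voom. The median log2 change was −0.18, and the summed level was 355 ± 60.6 CPM (APC-WT) and 360 ± 45.8 CPM (APC-KI). Hoxa9, a posterior gene also known from blood stem cells, measured 97.0, 118 and 134 CPM (APC-WT replicates 1 to 3) against 126, 112 and 112 CPM (APC-KI replicates 1 to 3). The APC-KI values lay inside the APC-WT range, with a log2 change of 0.01 ± 0.13 (SE). Hoxa10 measured 58.6, 74.6 and 105 CPM (APC-WT) against 92.9, 85.5 and 70.7 CPM (APC-KI), again inside that range (log2 change 0.07 ± 0.22). Hoxa13, which is needed to form the hindgut end and the digits, measured 58.9, 41.9 and 47.7 CPM (APC-WT) against 47.1, 39.6 and 41.0 CPM (APC-KI). Its log2 change of −0.22 ± 0.14 did not pass (adjusted p = 0.294).

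Hoxa7 measured 40.3, 39.2 and 52.8 CPM (APC-WT) against 64.1, 66.9 and 41.0 CPM (APC-KI). APC-KI replicate 3 lay within the APC-WT range and the other APC-KI libraries above it. Its log2 change of 0.38 ± 0.21 did not pass (edgeR adjusted p = 0.231), but did without APC-KI replicate 3 (0.56, adjusted p = 0.0431). Hoxa11, which patterns the reproductive tract and forearm, varied most within this cluster. It measured 12.3, 13.7 and 35.8 CPM (APC-WT) against 23.0, 21.1 and 8.81 CPM (APC-KI), a 4.07-fold range that crossed both groups. Its log2 change of −0.22 turned to 0.44 without APC-WT replicate 3 and to 0.09 without APC-KI replicate 3. Hoxa2 to Hoxa6 had log2 changes between −0.45 and −0.01. Among Hoxa genes the small changes of Hoxa3, Hoxa5, Hoxa9 and Hoxa10 also turned in sign with a library left out, so they have no direction. Hoxa3 overlaps Hoxa4, Hoxa5 and Hoxa6 on the same strand in the reference annotation, and of all HOX genes 14 overlap a gene on the opposite strand, 15 one on the same strand and 16 none.

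The Hoxb cluster spread more widely between libraries than between groups. Its summed level was 249 ± 109 CPM (APC-WT) and 202 ± 72.3 CPM (APC-KI), with a 2.64-fold range over libraries. Hoxb13 measured 190, 190 and 58.4 CPM (APC-WT replicates 1 to 3) against 117, 96.7 and 202 CPM (APC-KI replicates 1 to 3). Both groups held low and high libraries, with a log2 change of −0.07 ± 0.48 (edgeR adjusted p = 0.925) whose sign turned without any 1 of APC-WT replicates 1 and 2 and APC-KI replicates 1 and 2 (0.04 to 0.16). Hoxb4, a gene of the neck region also used by blood stem cells, measured 1.29, 2.16 and 1.09 CPM (APC-WT) against 2.34, 2.62 and 3.49 CPM (APC-KI). Its groups did not overlap, yet the log2 change of 0.90 ± 0.32 did not pass (edgeR adjusted p = 0.0930). It passed in DESeq2 (adjusted p = 0.035).

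The ranges of Hoxb3, an anterior gene, and of the central genes Hoxb5 to Hoxb8 overlapped between the groups. Hoxb6 measured 3.04, 6.10 and 1.53 CPM (APC-WT) against 6.13, 1.63 and 11.1 CPM (APC-KI), a 7.22-fold range with a log2 change of 0.82 ± 0.75. Hoxb5 ranged 6.88-fold over the libraries, Hoxb7 4.43-fold and Hoxb3 3.97-fold, with log2 changes of 0.85, 0.49 and 0.32 that did not pass. These values leaned on APC-KI replicate 3, without which Hoxb5, Hoxb6 and Hoxb7 were at 0.24, 0.11 and 0.03 and Hoxb3 turned to −0.26. Each of Hoxb3 to Hoxb7 and Hoxb13 was lowest in APC-WT replicate 3 and highest in APC-KI replicate 3. Hoxb8, at 0.96 to 2.92 CPM, and Hoxb2, at 0.21 to 0.57 CPM, did not follow that order, with log2 changes of −0.55 and 0.76 that did not pass (adjusted p = 0.297 and 0.179).

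**Figure D3:**
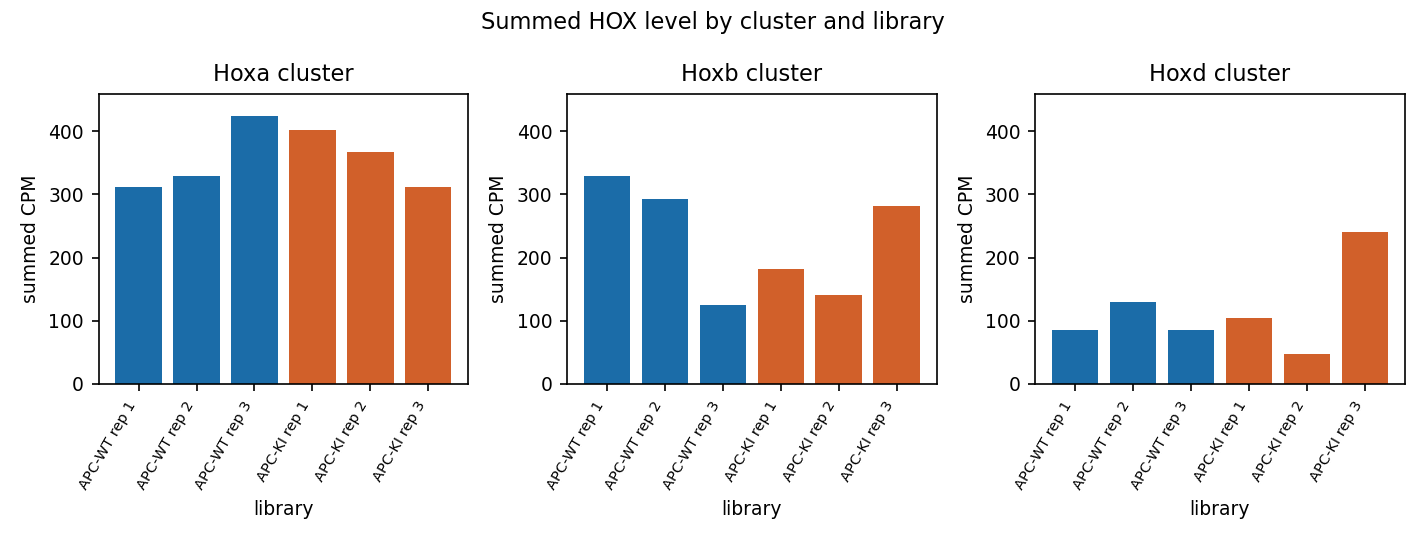
Summed CPM of the Hoxa, Hoxb and Hoxd clusters in each library (blue bars, APC-WT; orange bars, APC-KI; axes start at 0). Hoxa sums lie between 311 and 424 CPM in all libraries, while Hoxb sums run from 125 to 329 CPM and Hoxd sums from 47.9 to 241 CPM with both groups mixed.

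In the Hoxd cluster 1 library stood high and 1 low among the APC-KI tumours. The summed level was 85.4, 129 and 84.5 CPM in APC-WT replicates 1 to 3 and 104, 47.9 and 241 CPM in APC-KI replicates 1 to 3, a 5.04-fold range that the APC-KI group alone spanned. Hoxd13, which with Hoxa13 patterns the hindgut end and the digits, measured 46.0, 75.3 and 49.3 CPM (APC-WT) against 70.6, 30.1 and 166 CPM (APC-KI). With a log2 change of 0.64 ± 0.58 Hoxd13 did not pass (edgeR adjusted p = 0.448). Hoxd12 measured 20.8, 29.4 and 17.4 CPM (APC-WT) against 12.7, 5.03 and 27.8 CPM (APC-KI), with a log2 change of −0.57 ± 0.57 (adjusted p = 0.496). Neither passed, and without APC-KI replicate 3 both were negative (−0.19 for Hoxd13 and −1.36 for Hoxd12). Hoxd9 to Hoxd13 were each lowest in APC-KI replicate 2, and all of them other than Hoxd12 were highest in APC-KI replicate 3. Hoxd8, Hoxd9, Hoxd10 and Hoxd11 had log2 changes of 0.17, 0.11, 0.44 and 0.46 that did not pass, and all 4 turned negative without APC-KI replicate 3 (−0.09, −0.73, −0.35 and −0.24). Hoxd9 also turned without APC-WT replicate 3 (−0.02).

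The abundant HOX genes varied more within groups than most genes of like level. Among 6829 genes with a mean between 30 and 300 CPM, the median biological coefficient of variation was 0.117. All 7 HOX genes in that range were above it, from 0.131 for Hoxa9 and 0.148 for Hoxa13 to 0.403 for Hoxb13 and 0.471 for Hoxd13. Of the 7, 5 lay above the 90th percentile of 0.186.

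Next to Hoxa13, whose groups overlapped, a pair of genes fell. Evx1, a homeobox gene just beyond Hoxa13, measured 79.9, 61.3 and 53.3 CPM (APC-WT) against 19.4, 13.8 and 28.2 CPM (APC-KI). Every APC-KI library was lower, and Evx1 fell 3.17-fold (log2 change −1.66 ± 0.28, edgeR adjusted p = 0.0139). It did not pass without APC-KI replicate 1 (−1.62, adjusted p = 0.0567) or in the 4 libraries lacking Y-linked counts (−1.38, adjusted p = 0.17). Hottip, a long noncoding RNA between Hoxa13 and Evx1 that is known to bind the MLL partner WDR5, measured 17.9, 12.8 and 20.0 CPM (APC-WT) against 11.9, 9.14 and 9.31 CPM (APC-KI). It fell with a log2 change of −0.74 (edgeR adjusted p = 0.0457). With single libraries left out it passed only without APC-WT replicate 2 (the other 5 gave edgeR adjusted p from 0.0771 to 0.145). Hottip did not pass in limma-voom (adjusted p = 0.0524), and over all alternatives it was called in 7 of 16 fits. In the 4 libraries lacking Y-linked counts its log2 change was −0.98. The difference between these changes and that of Hoxa13 was not tested.

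**Figure D4:**
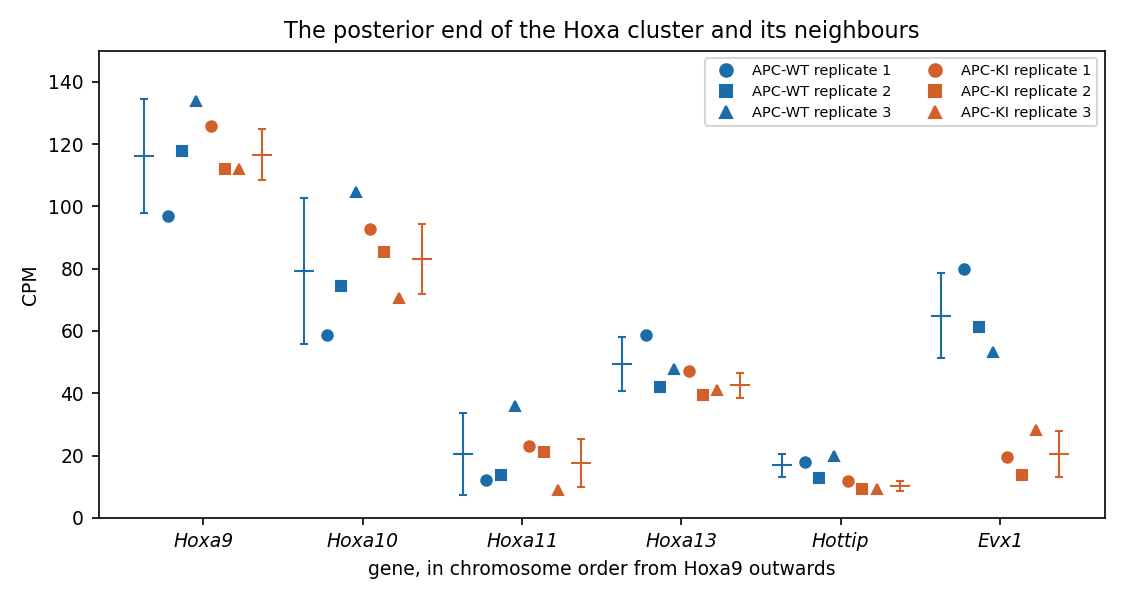
CPM of the posterior Hoxa genes and their neighbours Hottip and Evx1 in each library (points; blue, APC-WT; orange, APC-KI; shape, replicate), with the mean and SD of each group (bars, n = 3). The groups overlap for Hoxa9, Hoxa10, Hoxa11 and Hoxa13, while every APC-KI point of Evx1 and Hottip lies below every APC-WT point.

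Among the noncoding genes of the clusters 17 were found and 9 tested, of which 1 rose and 1 fell (Hottip). The one that rose was Hoxb5os, on the strand opposite Hoxb5 and Hoxb6, with counts of 2, 0 and 3 (APC-WT replicates 1 to 3) against 20, 15 and 22 (APC-KI replicates 1 to 3). Its log2 change was 3.55 (edgeR adjusted p = 0.0154), and it did not pass without APC-KI replicate 1 (adjusted p = 0.0592) or in the 4 libraries lacking Y-linked counts (2.61, adjusted p = 0.129). The strand setting of the counting is not given in the sources used here, so reads of Hoxb5 and Hoxb6 cannot be told apart from it with certainty. Hoxa11os, opposite Hoxa11, averaged 111 ± 28.7 CPM (APC-WT) and 77.1 ± 5.25 CPM (APC-KI, both SD, n = 3), and Hoxb3os 0.16 ± 0.09 and 0.43 ± 0.06 CPM. Neither passed (edgeR adjusted p = 0.0809 and 0.0602). Of 19 flanking protein-coding genes tested, 2 fell, Evx1 and Calcoco1 (log2 change −0.51, adjusted p = 0.0462), with a median of 0.04. Calcoco1 kept its call only without APC-WT replicate 3 or APC-KI replicate 3 (edgeR adjusted p up to 0.133 without another library).

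The partners and regulators of HOX genes changed in part. Of 12 TALE-class and other cofactors tested, 1 rose and 3 fell, with a median log2 change of −0.16. The TALE repressors Tgif1 and Tgif2 fell by 0.44 and 0.69 on the log2 scale, and the low-level Pknox2 rose by 1.41 (edgeR adjusted p = 0.03, 0.0427 and 0.0277). With single libraries left out, Tgif2 kept its call in 1 of 6 fits, Tgif1 in 2 and Pknox2 in 3, and none of these 3 passed without APC-KI replicate 2. Of 8 ParaHox and gut patterning genes tested, 1 rose and 1 fell (Evx1), with a median log2 change of 0.47. Cdx1 and Cdx2, which activate HOX genes in the hindgut, had log2 changes of 0.50 and 0.43 that did not pass (edgeR adjusted p = 0.0531 and 0.709). The Cdx1 groups did not overlap (69.8 to 87.4 CPM in APC-WT against 90.9 to 127 CPM in APC-KI). Cdx2 measured 32.8, 17.3 and 34.0 CPM (APC-WT) against 56.5, 51.6 and 5.34 CPM (APC-KI), with APC-KI replicate 3 the lowest of all libraries.

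Of 23 Polycomb genes 1 rose and 2 fell, with a median of −0.24. Cbx2, a subunit that reads the repressive histone mark, fell by 0.79, the methyltransferase Ezh2 fell by 0.47, and Phf1 rose by 0.48 on the log2 scale (edgeR adjusted p = 0.0126, 0.0474 and 0.0338). Of 14 Trithorax and MLL genes 3 fell, Ash2l by 0.37, the demethylase Kdm6b by 0.44 and the methyltransferase Dot1l by 0.32, with a median of −0.04. Of 15 retinoic acid genes 3 rose and 1 fell, with a median of 0.07. Aldh1a3, which makes retinoic acid, rose by 1.76, the binding protein Crabp2 rose by 1.69, and the dehydrogenase Rdh10 fell by 0.51. Crabp2 was rare, with counts of 10, 3 and 9 (APC-WT replicates 1 to 3) against 18, 25 and 22 (APC-KI replicates 1 to 3). With single libraries left out, Cbx2 kept its call in 5 of 6 fits (not without APC-KI replicate 1, edgeR adjusted p = 0.0553), Rdh10 in 3, Ash2l and Kdm6b in 2, and Ezh2, Phf1, Dot1l, Aldh1a3 and Crabp2 in 1. All of these other than Cbx2 missed the threshold without APC-KI replicate 2, and their adjusted p reached at most 0.139 in any such fit. Over all alternatives Cbx2 was called in 13 of 16 fits. The counts of genes called in these lists stand beside the 20.1% of all genes called in the main fit.

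The MSX and DLX genes, homeobox genes outside the HOX clusters, are given for their own counts. Of 9 genes 5 were tested and all 5 fell, with summed levels of 33.6 to 46.6 CPM (APC-WT) and 2.20 to 5.12 CPM (APC-KI). Msx1 measured 21.2, 14.6 and 21.5 CPM (APC-WT) against 0.94, 0.86 and 1.30 CPM (APC-KI) (log2 change −4.20, edgeR adjusted p = 0.00119). Msx3, Msx2 and Dlx3 had log2 changes of −4.23, −3.27 and −3.05. Msx3 and Msx2 were rare. Msx3 had counts of 41, 46 and 43 (APC-WT replicates 1 to 3) against 2, 2 and 2 (APC-KI replicates 1 to 3). Msx2 had 46, 16 and 38 (APC-WT) against 4, 2 and 3 (APC-KI). Of Msx1, Msx3, Msx2 and Dlx3, Dlx3 alone missed the threshold without 1 library (APC-KI replicate 1, edgeR adjusted p = 0.0553). Over all alternatives that tested them, Msx2 was called in 13 of 15 fits and Dlx3 in 13 of 16. The difference between the 2 families was not tested.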

How the data were processed

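RNA of 6 colon tumours, 1 library each, was sequenced from TruSeq Stranded mRNA libraries, per the labels' protocols. The submitters' processing notes name cutadapt 2.5, Trim Galore 0.6.4, DESeq2 1.37.6 and STAR, and the builds GRCm38 and mm10. Which program counted the reads, with which strand setting and gene models, is not given in the sources used here. Raw counts per Ensembl gene, as the authors deposited them and without normalization, were analysed.

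GENCODE M21 gave symbols (for 52093 identifiers), overlaps and exon lengths. Its identifier versions equal those of the table for only 35 genes, so levels per kilobase are approximate. The group comparison used edgeR 4.0.16 in R 4.3.3 (filterByExpr, TMM, robust quasi-likelihood test on group), with Benjamini-Hochberg adjustment over all 19127 genes and a threshold of 0.05. CPM use TMM-scaled library sizes. Positive log2 changes are higher in APC-KI, and an SE is the log2 change over the square root of F. On simulated data the procedure called 44.4% of 2-fold and 87.9% of 4-fold changes with the right sign, and 6.43% of its calls were false. The simulated fit made 140 calls among 18810 genes, against 20.1% of genes called in the main fit. The adjusted threshold of 0.05 was therefore stricter in unadjusted p on the simulated data. The simulated spread followed the trend over all genes. HOX genes spread more, with a median biological coefficient of variation of 0.278 against 0.199 for all genes, so these shares may not hold for them. HOX members, gene lists and alternatives were chosen with earlier results of these data known. Some members and list genes are not reported here. From each other list up to 4 members with the smallest p were eligible to be named, and marker lists are given as counts. The labels give no batch, and p-values measure the spread between these samples, which may be technical.

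Alternatives were DESeq2 1.42.0, limma-voom (limma 3.58.1), RLE factors, upper-quartile factors, unscaled library totals, dropping the filter, a filter asking for CPM above 1 in 3 or more samples, a replicate block, leaving out each library, leaving out the libraries with Y-linked counts, and a covariate for those counts.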

Additional observations from a re-analysis of the deposited data

How the results depend on the processing

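Of 27 HOX genes tested, 1 was called higher and 1 lower. The stricter filter removed Hoxd4 before testing, and no other HOX gene was called higher there. The count of higher calls was 0 with no filter, 0 with Y-linked counts as a covariate, and from 0 to 1 with each library left out. That 1 call, without APC-KI replicate 3, was Hoxa7 in place of Hoxd4. The count of lower calls was 0 in limma-voom, 0 with no filter, 0 in the libraries lacking Y-linked counts and 0 with those counts as a covariate, and from 0 to 1 with each library left out. The cause of these losses was not tested. Between 2 and 4 HOX genes had an unadjusted p under 0.05 in every alternative. Of 428 single values of HOX genes under alternatives, 405 kept their side of the threshold, 21 lost a call (Hoxb9 and Hoxd4) and 2 gained one (Hoxa7 and Hoxb4), and 0 called values reversed. The median log2 change of HOX genes ran from −0.14 without APC-KI replicate 3 to 0.23 with Y-linked counts as a covariate.

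With the replicate number as a block, 0 HOX genes were called higher and 0 lower (Hoxb9 adjusted p = 0.0743, Hoxd4 adjusted p = 0.0875). Deviations of same-numbered libraries from their group means correlated at 0.03, −0.08 and −0.22 over genes, and those of differently numbered libraries at −0.20 to 0.25. With 3 libraries per group these values cannot decide whether the numbers pair the samples. Hoxd4, with 52 counts over all libraries, and the 12 untested genes are limited by depth. Of 576 counts of calls in the other lists under alternatives, 173 moved by over 1.5 times.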

Other observations

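Ratios of neighbouring posterior genes within a library, chosen after their values were seen and therefore given without a test, are given first. Hoxd12 had 0.452, 0.39 and 0.352 counts per count of Hoxd13 in APC-WT replicates 1 to 3 and 0.181, 0.167 and 0.167 in APC-KI replicates 1 to 3. Within the APC-KI group this ratio stayed close together although Hoxd13 itself ranged from 30.1 to 166 CPM. Hoxb9 had 0.663, 0.428 and 1.00 counts per count of Hoxb13 in APC-WT and 0.4, 0.344 and 0.233 in APC-KI libraries. In both pairs every APC-KI library lay below every APC-WT library. Hoxa13 counts per count of Hoxa9 were 0.607, 0.355 and 0.357 in APC-WT and 0.374, 0.354 and 0.366 in APC-KI libraries, which overlap. The paralogue 9 genes held 24.5%, 19.2% and 21.5% of the HOX level per kilobase in APC-WT replicates 1 to 3 and 16.8%, 17.2% and 12.7% in APC-KI replicates 1 to 3. Among these genes Hoxb9 was lower in APC-KI, as described above, while Hoxa9 and Hoxd9 had log2 changes of 0.01 and 0.11. The share also depends on the other HOX genes. APC-KI replicate 3, with the lowest share, had the highest Hoxb13 and Hoxd13 of all libraries (202 and 166 CPM). The source of the difference in share was not tested.

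The balance between clusters also differed from library to library. Per kilobase, Hoxa genes held 61% of the HOX level in APC-WT replicate 3 and 30.3% in APC-KI replicate 3, the extremes of the 6 libraries. Hoxd genes held 15.3% and 30.5% in the same libraries, and Hoxb genes 23.7% and 39.2%. The highest Hoxb share, 51.1%, was in APC-WT replicate 1. By group, Hoxa genes held 44.7% ± 14.1 in APC-WT and 46.8% ± 14.8 in APC-KI tumours (SD, n = 3 each).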
